A study of Mus musculus with 6 samples.

Results

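Neutrophil granule and S100 transcripts were examined in leukemia cells in which tamoxifen was meant to remove 1 allele of Usp18, the protease that takes the ubiquitin-like protein ISG15 off its targets and restrains type I interferon signaling. The genes are listed by name from the known contents of neutrophils. They are the primary granule genes Elane, Mpo, Prtn3 and Ctsg, the secondary granule genes Ltf, Camp, Lcn2 and Ngp, and the S100 genes S100a8 and S100a9. All 10 have a row among the 53618 named genes of the table, and 3 of them (Elane, Prtn3 and Ctsg) are among the 12298 genes with enough reads to be tested.

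The cells came from mice that carried Usp18+/f UBCER-Cre leukemia driven by AE9a, a truncated AML1-ETO fusion protein. Once the mice were sick they received oil or tamoxifen, and GFP+Lin−c-Kit+ cells were sorted from the spleen 3 days after the first injection. Each group held 3 mice with 1 bulk RNA-seq library per mouse: oil leaves the cells Usp18+/f, and tamoxifen is meant to make them Usp18+/Δ. Both groups carry AE9a with GFP and the floxed allele, and they differ in the agent as well as in the genotype it is meant to give. The inducible Cre came with the transplanted fetal liver cells, GFP marks the cells that received the AE9a retrovirus, and the transplanted mice keep their own GFP-negative blood cells, which the sort is meant to remove.

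The libraries held from 19172471 to 23785143 reads. Usp18 itself went against its label, with 217, 214 and 176 normalized counts (reads divided by the size factor of the library) in oil 1 to 3 and 477, 329 and 284 in the libraries labelled tamoxifen 1 to 3. Its log2 difference was 0.81 (SE 0.25), and limma gave an adjusted p of 0.666. The row is a total over the gene and does not separate the alleles. Kit, the receptor used for the sort, had 7512 to 8990 normalized counts in oil and 4687 to 10976 in the libraries labelled tamoxifen. The library labelled tamoxifen 1 stood apart: its median correlation with the others was 0.913, against 0.981 to 0.990 for the other libraries, its deviations followed the GC content of the genes (Spearman 0.687, against −0.222 to −0.00173), and 0.00923% of its reads were mitochondrial, against 1.01% to 1.56%. Results are therefore given with and without it.

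Neutrophils fill their granules in waves while they mature in the marrow. Promyelocytes make the primary (azurophil) granules, whose serine proteases and myeloperoxidase digest and oxidize what the cell engulfs, and myelocytes make the secondary (specific) granules, which hold antimicrobial and metal-binding proteins. S100a8 and S100a9 encode the calcium-binding pair calprotectin, which fills the cytosol of neutrophils and monocytes and can act on Toll-like receptor 4 when released. RUNX1 (AML1), C/EBP factors and PU.1 drive these genes in normal granulocyte precursors, and AML1-ETO keeps the DNA-binding part of RUNX1.

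The sequences just before 4 of the genes are shown, since these are 4 of the 5 genes with the clearest separation of reads between the groups and come from every role. Each is the part of the 250 bases before the RefSeq start that also lies before the gene in the GENCODE annotation, in GRCm38.p6, 5′ to 3′ on the strand of the gene. Elane lies at chr10:79886062-79886246 (plus strand), Ngp at chr9:110419558-110419746 (plus strand), S100a8 at chr3:90668821-90668977 (plus strand) and S100a9 at chr3:90695722-90695971 (minus strand). Capitals mark letters that match GAGGAA (bound by PU.1 and other ETS proteins), TTGCNNAA (C/EBP) or TGTGGT (RUNX), or the reverse complements TTCCTC, TTNNGCAA and ACCACA.
Elane: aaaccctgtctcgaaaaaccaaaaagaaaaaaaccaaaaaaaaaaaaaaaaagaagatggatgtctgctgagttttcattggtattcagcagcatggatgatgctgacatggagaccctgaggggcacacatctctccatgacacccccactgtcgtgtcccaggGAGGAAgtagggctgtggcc
Ngp: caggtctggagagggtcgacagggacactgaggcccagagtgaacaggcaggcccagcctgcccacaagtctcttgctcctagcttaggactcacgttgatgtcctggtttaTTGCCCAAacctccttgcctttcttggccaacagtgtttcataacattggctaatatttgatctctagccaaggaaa
S100a8: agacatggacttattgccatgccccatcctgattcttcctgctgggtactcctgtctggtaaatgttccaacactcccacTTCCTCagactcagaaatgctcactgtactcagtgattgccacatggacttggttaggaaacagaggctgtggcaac
S100a9: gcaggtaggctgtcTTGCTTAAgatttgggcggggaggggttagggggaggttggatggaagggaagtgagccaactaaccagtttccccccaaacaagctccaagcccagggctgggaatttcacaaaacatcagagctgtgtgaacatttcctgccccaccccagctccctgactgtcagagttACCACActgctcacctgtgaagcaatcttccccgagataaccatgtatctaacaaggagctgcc

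Over the full 250 bases before the RefSeq start, searched on both strands, GAGGAA was present in 7 of the 10 genes (Lcn2, S100a8, Ltf, Prtn3, Elane, Mpo and Ctsg), against 23.3% of the 32851 RefSeq windows of that length. TTGCNNAA was present in 4 (Lcn2, S100a9, Ngp and Ltf), against 9.56% of windows. TGTGGT was present in S100a9 and Ctsg, against 14% of windows. Camp, the remaining gene with the clearest separation of reads, is not shown above and had none of these 3. An interferon-stimulated response element (2.98% of windows) and an NF-kB-type motif (4.11% of windows), each with free positions inside it and searched in the same way, had no match in the 10 genes. Matches are letters only, and some of these full windows run into bases that GENCODE places inside the gene.

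The transcripts were scarce in both groups, as the plot of normalized counts by library shows. Ctsg had 53 to 207 reads in a library and Prtn3 had 7 to 35, while the other 8 genes had 0 to 21. Of the 10 genes, 8 (all but Prtn3 and Ctsg) had more normalized counts in every library labelled tamoxifen than in any oil library, and none had fewer in every one. Beside this count of 8 stands the background: 7.86% of the 12298 tested genes were higher without overlap and 9.69% lower. Most of the 8 were too low to be tested, so the closer background is that of the 1639 genes with mean normalized counts in their range of 3.38 to 7.34, of which 9.15% were higher and 4.64% lower without overlap. In 5 genes (Elane, Camp, Ngp, S100a8 and S100a9) every library labelled tamoxifen also had over 3 reads and more reads than any oil library, which held for 4.82% of genes in that range.

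**Figure D1:**
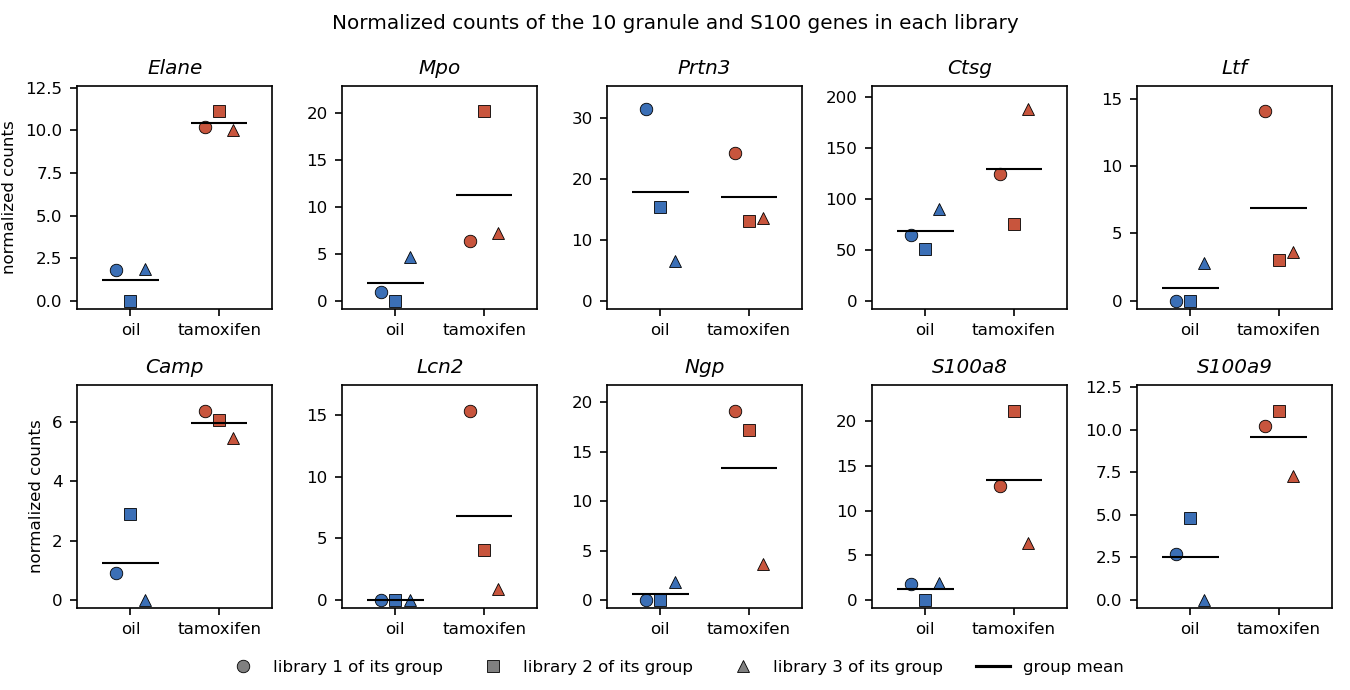
Normalized counts of the 10 genes, 1 panel each with its own axis, in oil (blue) and in the libraries labelled tamoxifen (red); each point is 1 library, its shape gives the library number, and the line is the group mean. Ctsg and Prtn3 overlap between the groups, and the other genes lie between 0 and 4.82 in oil and between 0.909 and 21.2 in the libraries labelled tamoxifen.

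No gene of the table passed the limma test (lmFit and eBayes on log2 of the normalized count plus 1, adjusted p under 0.05), a background of 0% of 12298 genes. At an unadjusted p under 0.05, 397 genes (3.23%) were higher, Elane among them. Without the filter on low genes limma still called 0 of 24247 genes after adjustment, and 8 of the 10 genes had an unadjusted p under 0.05 with a higher level (all but Prtn3 and Ctsg), against 3.28% of all genes. DESeq2 called 69 genes (0.437%) higher and none of the 10, and at an unadjusted p under 0.05 it had 6 of the 10 higher (Elane, Mpo, Ctsg, Lcn2, Ngp and S100a8), against 4.42%. edgeR's quasi-likelihood test called 0 of 12340 genes in either direction, with 594 at an unadjusted p under 0.05, and of the 2 members it could test (Prtn3 and Ctsg) 0 were at that p. Without the library labelled tamoxifen 1 6 of the 10 were higher at an unadjusted p under 0.05 with unfiltered limma, against 5.23% of all genes. DESeq2 then left 6 of the 10 an adjusted p, and 4 of these (Elane, Mpo, Ctsg and S100a8) were higher at an unadjusted p under 0.05, against 5.31% of genes with an adjusted p. In bulk RNA, more cells of a type and more RNA per cell cannot be told apart.

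Among the primary granule genes, Elane encodes neutrophil elastase, the serine protease mutated in congenital neutropenia (chr10:79886247-79888215). It had 2, 0 and 2 reads in oil 1 to 3 and 8, 11 and 11 in the libraries labelled tamoxifen 1 to 3. The groups did not overlap, and the libraries labelled tamoxifen lay close together. Mean normalized counts were 1.22 ± 1.06 (SD, n = 3) in oil and 10.4 ± 0.588 (SD, n = 3) in the libraries labelled tamoxifen. The ratio of reads summed over each group and corrected for size factors was 8.43, with an exact 95% interval of 2.97 to 32.9 that covers counting error only. The log2 difference was 2.52 (SE 0.56), and limma gave an unadjusted p of 0.00314 and an adjusted p of 0.666. Elane passed the filter only through the group in which it was higher, with 10 or more normalized counts in each library labelled tamoxifen and in no oil library.

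Mpo encodes myeloperoxidase, the heme enzyme that makes hypochlorous acid (chr11:87793581-87804413). It had 1, 0 and 5 reads in oil and 5, 20 and 8 in the libraries labelled tamoxifen. The groups separated in normalized counts alone, because oil 3 and the library labelled tamoxifen 1 had the same 5 reads from libraries of unequal depth. The ratio of summed reads was 6.18 (exact 95% interval 2.56 to 18.0). The log2 difference was 2.31, and it was 2.98 without oil 3, which held most of the oil reads, and 1.74 without oil 2. The gene Gm11505, which overlaps Mpo on the other strand, had 0 reads in every library.

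Prtn3 encodes proteinase 3, the close relative and chromosomal neighbor of Elane, 3.07 kb away (chr10:79874476-79883174). It had 35, 16 and 7 reads in oil and 19, 13 and 15 in the libraries labelled tamoxifen, so the groups overlapped and oil 1 was the highest library. The ratio of summed reads was 0.910 (exact 95% interval 0.606 to 1.36). That interval covers counting error only, and the oil libraries alone spread over 7 to 35 reads. The log2 difference was 0.13 (SE 0.60, limma adjusted p = 0.917), and without the library labelled tamoxifen 1 it was −0.14. Plppr3 overlaps Prtn3 on the opposite strand with 19 to 43 reads a library, and no strand setting is given in the sources used here, so the Prtn3 count is uncertain.

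Ctsg encodes cathepsin G, a chymotrypsin-like protease that mast cells and monocytes also store (chr14:56099881-56102574). It had 64.7, 51.1 and 90.1 normalized counts in oil and 124, 75.8 and 188 in the libraries labelled tamoxifen. The library labelled tamoxifen 2 lay below oil 3, so the groups overlapped. The oil libraries averaged 68.6 ± 19.8 (SD, n = 3), and those labelled tamoxifen 129 ± 56.4 (SD, n = 3). The log2 difference was 0.85 (SE 0.40), and limma gave an unadjusted p of 0.0730 and an adjusted p of 0.666. That difference was 0.83 without the library labelled tamoxifen 1, 1.18 without tamoxifen 2 and 0.53 without tamoxifen 3. The ratio of summed reads was 1.92 (exact 95% interval 1.62 to 2.27). Per length Ctsg was the most abundant of the 10, at 3.07 RPKM (reads scaled to exon length and library size) in oil and 5.65 in the libraries labelled tamoxifen, where no other member had a mean over 0.866.

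All 4 secondary granule genes were near 0 in oil. Ltf encodes lactoferrin, the iron-binding protein of the specific granule (chr9:111019271-111042767). It had 0, 0 and 3 reads in oil and 11, 3 and 4 in the libraries labelled tamoxifen. The library labelled tamoxifen 2 had the same 3 reads as oil 3, so the separation there rested on depth. The ratio of summed reads was 6.74 (exact 95% interval 1.97 to 35.7), and 3.60 without the library labelled tamoxifen 1. Camp encodes the cathelicidin precursor, whose cleaved peptide kills bacteria (chr9:109847379-109849617). It had 1, 3 and 0 reads in oil and 5, 6 and 6 in the libraries labelled tamoxifen, without overlap. Its mean rested on few reads but varied little, at 5.97 ± 0.474 normalized counts (SD, n = 3) against 1.26 ± 1.48 (SD, n = 3) in oil. The ratio was 4.78 (exact 95% interval 1.56 to 19.5).

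Lcn2 encodes lipocalin 2, which binds bacterial siderophores and so withholds iron (chr2:32384633-32388252). No oil library had a read, and the libraries labelled tamoxifen 1 to 3 had 12, 4 and 1. Against a floor of 3 reads over the oil group it was at least 6.37-fold higher, and at least 2.57-fold higher without the library labelled tamoxifen 1, which held most of the reads. The exact 95% lower limit of the ratio, which rests on the summed reads of both groups and on no floor, was lower, at 4.64-fold. For the oil group alone, with 0 reads, the exact 95% upper limit was 3.69 reads. Ngp encodes neutrophilic granule protein, a cathelicidin-related protein of the same granule (chr9:110419747-110423012). It had 0, 0 and 2 reads in oil and 15, 17 and 4 in the libraries labelled tamoxifen, without overlap. Normalized counts averaged 0.619 ± 1.07 (SD, n = 3) in oil and 13.3 ± 8.45 (SD, n = 3) in the libraries labelled tamoxifen. Its ratio of summed reads was 20.2 with a wide exact 95% interval of 5.21 to 173, since the oil group had 2 reads in all. Summed over the 4 secondary granule genes, reads numbered 1, 3 and 5 in oil and 43, 30 and 15 in the libraries labelled tamoxifen.

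The calprotectin genes lie 22.6 kb apart in the S100 cluster of chromosome 3. S100a8 (chr3:90668978-90670035) had 2, 0 and 2 reads in oil and 10, 21 and 7 in the libraries labelled tamoxifen. The groups did not overlap in reads or in normalized counts, with 1.22 ± 1.06 (SD, n = 3) in oil and 13.5 ± 7.45 (SD, n = 3) in the libraries labelled tamoxifen. The ratio of summed reads was 10.7 (exact 95% interval 3.84 to 41.2). The study named S100a8 from these same libraries, so its direction is not independent evidence. S100a9 (chr3:90692632-90695721) had 3, 5 and 0 reads in oil and 8, 11 and 8 in the libraries labelled tamoxifen, again without overlap. Its ratio was smaller, at 3.79 (exact 95% interval 1.68 to 9.66), and the intervals of the pair overlap. The log2 difference of S100a9 was 1.90, and it was 1.16 without oil 3, the library with 0 reads, and 2.44 without oil 2.

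**Figure D2:**
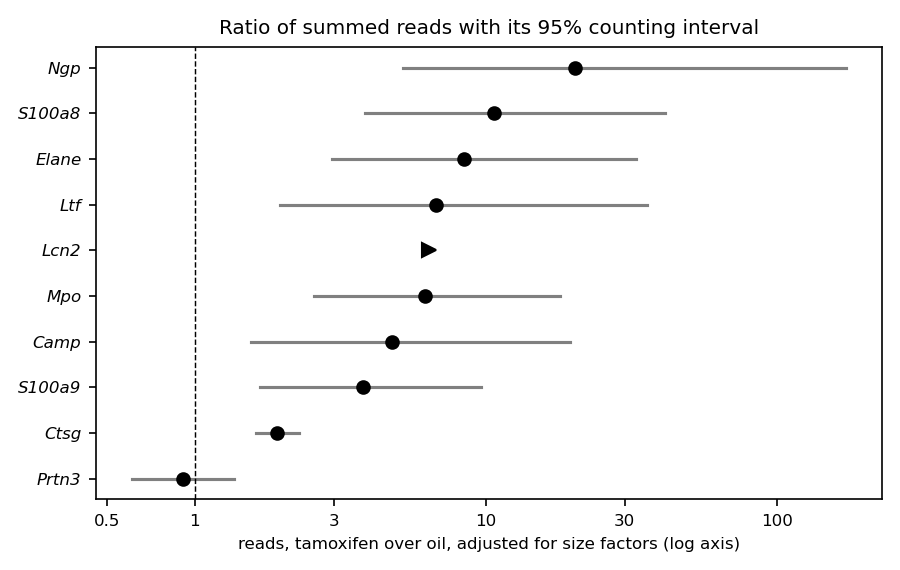
Ratio of size-factor-corrected reads, libraries labelled tamoxifen over oil, for each of the 10 genes on a log axis, with exact 95% intervals for counting error as bars; the value of Lcn2 is a lower bound against 3 reads over the oil group. The interval of Prtn3 includes 1, that of Ctsg runs from 1.62 to 2.27, and those of the other genes with a ratio start at 1.56 or higher.

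The plot of ratios shows how the 10 genes differed among themselves: the intervals of the 7 lower-read genes with a ratio overlap one another, from Ngp at 20.2 to S100a9 at 3.79, so their order cannot be read. The median log2 difference of the 10 genes was 2.19, against −0.017 over the genes tested and 0.10 over the 1639 genes in the level range of the 8 scarcer ones. The median of the 10 depended on the scale, at 1.02 with a pseudocount of 5 and 2.74 with DESeq2. With 1 library left out at a time the log2 difference was 1.47 to 2.71 for Ltf (lowest without tamoxifen 1, highest without oil 3), 1.63 to 3.18 for Lcn2 and 2.69 to 3.75 for Ngp (both lowest without tamoxifen 1 and highest without tamoxifen 3). Without the library labelled tamoxifen 1 the log2 differences of the 8 genes without overlap ran from 1.47 (Ltf) to 2.69 (Ngp), and the same 8 did not overlap, when 18.2% of genes of the range were higher without overlap.

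**Figure D3:**
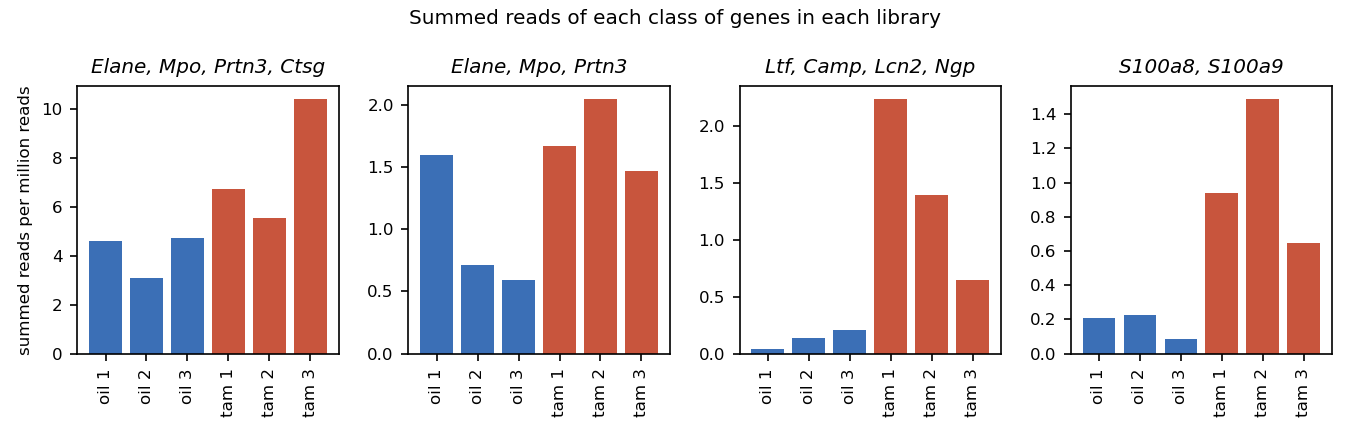
CPM (reads scaled to library size) summed over the primary granule genes, the primary granule genes without Ctsg, the secondary granule genes and the S100 genes in each of the 6 libraries; each bar is 1 library, blue for oil and red for the libraries labelled tamoxifen (tam). The secondary granule sum was 0.0421 to 0.212 in oil and 0.649 to 2.24 in the libraries labelled tamoxifen, and the primary granule sum without Ctsg overlapped between the groups.

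In CPM, the plot of sums by role shows the primary granule genes at 3.09 to 4.71 in oil and 5.54 to 10.4 in the libraries labelled tamoxifen, most of it Ctsg. The S100 pair summed to 0.0849 to 0.224 and 0.649 to 1.49. The library labelled tamoxifen 1 was the highest for the secondary granule sum, tamoxifen 2 for the S100 sum and tamoxifen 3 for the primary granule sum, so no library led in all roles. The number of the 10 genes without a read was 3, 6 and 3 in oil 1 to 3 and 0 in each library labelled tamoxifen.

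No other gene of the granule and S100 lists passed the limma test with all 6 libraries. For this and the following lists, the background of tested genes without overlap was 7.86% higher and 9.69% lower. Of 15 genes for granule packaging, processing and protease inhibition, 12 were tested, 1 was higher and 4 were lower without overlap, and the median log2 difference was −0.26, or −0.043 without the library labelled tamoxifen 1. Srgn, the proteoglycan core that holds granule proteases, had 26061 to 27779 normalized counts in oil and 18662 to 25442 in the libraries labelled tamoxifen. Its log2 difference was −0.26, or −0.12 without the library labelled tamoxifen 1, which was the lowest. Cd63, a tetraspanin of the azurophil granule membrane, had a log2 difference of 0.77, and Ap3b1, a subunit of the AP-3 sorting complex, one of −0.60, or −0.16 without the library labelled tamoxifen 1. Of 15 other primary granule and lysosomal hydrolase genes, 7 were tested, 1 was higher and 1 lower without overlap. The higher gene was Lyz2, lysozyme, with 8.08, 5.79 and 5.57 normalized counts in oil and 14.1, 36.4 and 11.8 in the libraries labelled tamoxifen (log2 difference 1.38, limma adjusted p = 0.666). It too reached the filter only through the libraries labelled tamoxifen.

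Among 20 other secondary and tertiary granule genes, 3 were tested, 1 of these was higher without overlap, and 3 had no read in any library. Mmp8, the neutrophil collagenase, had 10, 20 and 14 reads in oil and 0, 8 and 15 in the libraries labelled tamoxifen, with a log2 difference of −1.47, or −0.30 without the library labelled tamoxifen 1. Chil3, a chitinase-like protein chosen after its values were seen, had 0, 2 and 0 reads in oil and 1, 7 and 6 in the libraries labelled tamoxifen, which overlapped. Adam8, a membrane metalloprotease, had a log2 difference of 0.89. Of 15 other S100 genes, 5 were tested, 1 was higher and 2 were lower without overlap, and 7 had no read in any library. S100a11 had a log2 difference of 0.63, and DESeq2 called it when the library labelled tamoxifen 1 was left out (0.66, adjusted p = 0.0376). S100a1 had a log2 difference of −0.42, or −0.27 without the library labelled tamoxifen 1. S100a6, which lies 44.8 kb from S100a8, overlapped between the groups at 487 to 1071 normalized counts in oil and 799 to 1169 in the libraries labelled tamoxifen. Of 9 genes for receptors of calprotectin and their adaptors, 5 were tested, 1 was higher and 2 were lower without overlap. Bsg, which encodes the S100a9-binding protein basigin, had a log2 difference of −0.43, and Ly96, the partner of Toll-like receptor 4, one of −1.19, or 0.29 without the library labelled tamoxifen 1.

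The NADPH oxidase, which feeds hydrogen peroxide to myeloperoxidase, had 4 of 6 found genes tested and 1 tested gene higher without overlap. Ncf4, a cytosolic subunit, had a log2 difference of 1.14 (limma adjusted p = 0.666). Of 14 neutrophil surface receptor genes, 7 were tested, and 2 were higher without overlap, Clec4d (0.70, and 0.83 without the library labelled tamoxifen 1) and Selplg (0.54, and 0.33 without it). Defining markers of mature neutrophils were at or near 0: Ly6g had no read in any library, and Csf3r, Cxcr2, Retnlg and Mmp9 had 0 to 3 reads in each.

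Of 15 transcription factors of the granulocyte lineage, 10 were tested, and 2 were higher and 2 lower without overlap. Gfi1, a repressor needed for neutrophil maturation, had 4.49, 4.82 and 1.86 normalized counts in oil and 20.4, 11.1 and 12.7 in the libraries labelled tamoxifen. It was low throughout, and its log2 difference was 1.76 (SE 0.47, limma unadjusted p = 0.00817, adjusted p = 0.666). Like Elane, it was tested only through the libraries labelled tamoxifen, since no oil library reached 10. Cebpb, a C/EBP factor of emergency granulopoiesis, had a log2 difference of 1.35, or 0.77 without the library labelled tamoxifen 1. Runx1 had 11592 to 12791 normalized counts in oil and 9996 to 11220 in the libraries labelled tamoxifen.

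**Figure D4:**
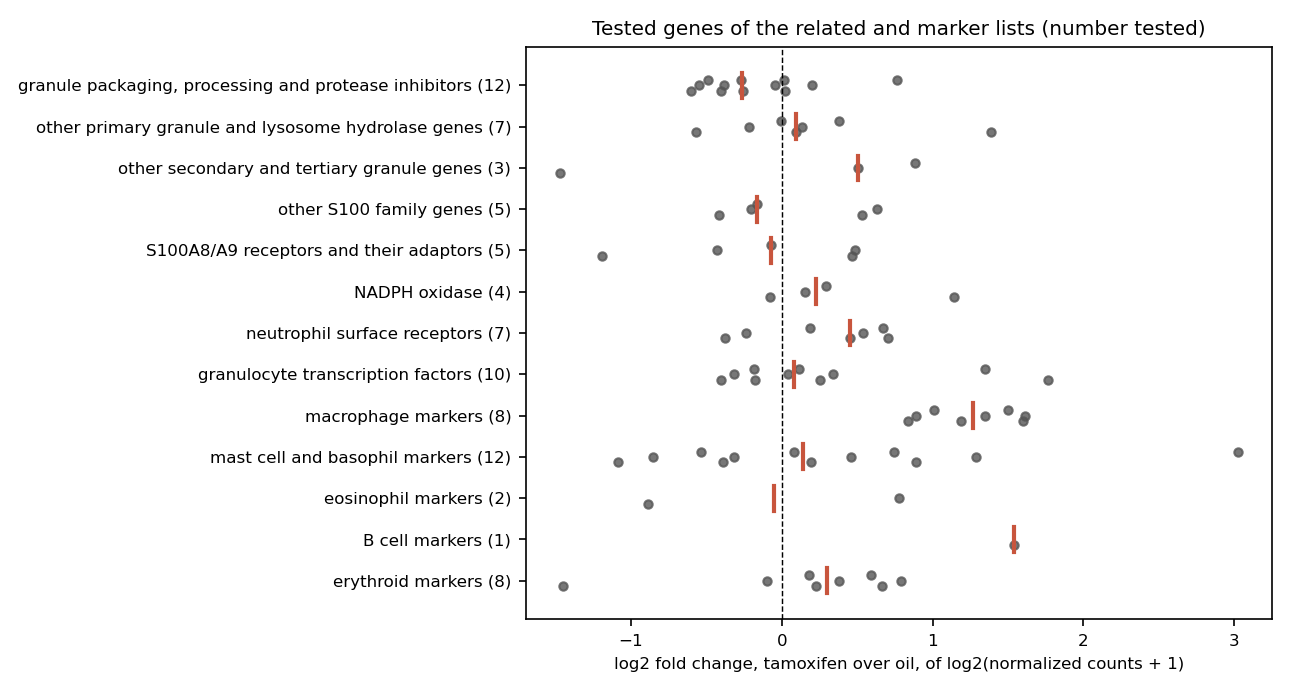
Log2 difference, libraries labelled tamoxifen minus oil, for each tested gene (points) of the related gene lists and marker lists, with the median of each list as a red line and the number tested after its name. The macrophage list has a median of 1.27 (1.26 without the library labelled tamoxifen 1) and the packaging list one of −0.26 (−0.043 without it).

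Markers of other cell types were measured beside these genes and stand in the plot of gene lists. Of 12 macrophage markers, 8 were tested and 4 were higher without overlap, with a median log2 difference of 1.27. The summed normalized counts of the list were 96.5 to 243 in oil and 272 to 382 in the libraries labelled tamoxifen. Csf1r, the receptor of macrophage colony-stimulating factor, had 11 to 25 reads in oil and 26 to 44 in the libraries labelled tamoxifen. The B cell markers summed to 13.5 to 27.8 and 50.0 to 57.5 normalized counts, with 1 of 6 tested and 2 of 6 at 0 reads in every library. The T and NK cell markers summed to 0.898 to 2.89 and 1.82 to 8.08, with 6 of 10 at 0 reads. The mast cell and basophil markers were abundant in both groups and overlapped, at 66169 to 74361 and 54178 to 89647, with 12 of 12 tested, 2 higher and 1 lower without overlap. The sum does not show single genes of this list, which lay in both directions, and of which Cpa3 was chosen after its values were seen. Ms4a2, a subunit of the IgE receptor and the gene lower without overlap, had a log2 difference of −1.09, or −0.30 without the library labelled tamoxifen 1. Mcpt1, a mast cell protease, had one of −0.85, or −0.60 without that library (limma adjusted p = 0.666 for both with all libraries). Tpsb2, a mast cell tryptase, had 8, 17 and 14 reads in oil and 36, 151 and 163 in the libraries labelled tamoxifen (log2 difference 3.03, limma adjusted p = 0.580). Cpa3, mast cell carboxypeptidase, had 3823, 3992 and 4174 normalized counts in oil and 4074, 7774 and 9431 in the libraries labelled tamoxifen (log2 difference 0.74, limma adjusted p = 0.666). Without the library labelled tamoxifen 1 limma called both, at log2 differences of 3.59 (adjusted p = 0.00277) and 1.10 (adjusted p = 0.00183). With that library left out and no filter on low genes, limma called neither. The eosinophil markers summed to 15.8 to 41.3 and 6.39 to 36.4, with 2 of 5 found genes tested. The 8 erythroid markers, all tested, summed to 45323 to 65522 and 50899 to 77077, with 1 lower without overlap. The part of these cells in the granule and S100 reads was not tested.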

How the data were processed

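GFP+Lin−c-Kit+ splenocytes of 6 mice were profiled by bulk RNA-seq, 3 labelled oil and 3 labelled tamoxifen. Groups came from the sample titles. The submitters' processing notes name mm10, STAR and DESeq2. The annotation, the strand setting and the filters are not given in the sources used here. The values deposited as counts by the authors are a normalized signal, read counts divided by a size factor per library. Every value above 0 was a whole multiple (tolerance 0.01) of 1 step per library, which recovered the reads. In tamoxifen 2 the step was 1.01. Rows with no gene name (1832 of 55450, 0.0400% to 0.0614% of reads) were left out.

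limma 3.58.1 (R 4.3.3, lmFit and eBayes with trend) was run on log2(value + 1) for the 12298 genes that reached 10 in 3 or more libraries, with two-sided p-values adjusted by Benjamini-Hochberg. This scale understates the change of low genes, so log2 differences of untested genes are given with no test. The plan set limma for normalized values and edgeR for raw counts. Because the deposited values were normalized, edgeR was run on the recovered reads as an alternative. DESeq2 1.42.0, edgeR 4.0.16, voom, TMM scaling, pseudocounts of 0.5 and 5, other filters, a GC correction (loess span 0.3), a replicate block and each library left out in turn were further alternatives. Exact Poisson and Clopper-Pearson intervals (95%) use reads summed over the 3 libraries of a group. They cover counting error only and leave out the spread between mice. Without molecular identifiers 1 molecule can give several reads, so they can be too narrow even for counting error. With 3 against 3, an exact two-sided permutation test cannot go below p = 0.1. The p-values measure the spread between mice of a group. Gene coordinates and exon lengths are those of GENCODE vM21 (GRCm38), matched by symbol for 52048 of 53618 named rows, and promoter sequences are from RefSeq (GRCm38.p6), which matched all 10 genes. Named genes are the 10, Usp18, Kit and, from the 14 related lists, mostly those with the smallest p or the highest mean. Csf3r, Cxcr2, Retnlg, Mmp9, Ly6g and Gm11505 were named as markers or for their overlap, and Lyz2 and Gfi1 also fall under the rule. Siglecf and Cybc1 had no row of that name. The results of 2 list genes are not reported here. The genes and lists were chosen with earlier results of these data known. The fits were tested on simulated data.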

Additional observations from a re-analysis of the deposited data

How the results depend on the processing

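Of 20 alternatives (3 of them, with tamoxifen 1 left out, chosen after seeing the data), 5 repeat the log2 differences of another setting by construction, since filters and blocks do not enter them. Under the other 15, 112 of 119 values of the 10 genes kept the direction of the reported value, and the 7 reversed values belonged to Prtn3. For Prtn3 the reversed values were −0.079 with DESeq2, −0.074 with edgeR, −0.23 with the GC correction and −0.41 without oil 3. Without tamoxifen 1 they were −0.14 with limma, −0.40 with DESeq2 and −0.39 with edgeR. Leaving out 1 library at a time gave −0.41 to 0.64 for Prtn3. The number of the 10 genes called was 0 under every alternative, but only unfiltered limma and DESeq2 gave all 10 a p-value. edgeR and voom tested Prtn3 and Ctsg, the CPM filter Ctsg alone, and the other alternatives Elane, Prtn3 and Ctsg. The number without overlap was 8 with TMM scaling and 8 to 9 with 1 library left out. With 1 library left out, 13.7% to 18.2% of genes in the level range of the 8 were higher without overlap (9.15% with all libraries). The median log2 difference of the 10 genes was 1.02 with a pseudocount of 5, 2.71 with one of 0.5, 2.74 with DESeq2, and 1.82 to 2.57 with 1 library left out. Among the related genes, DESeq2 called 1 (Tpsb2, a mast cell tryptase) and limma 0 to 2 with 1 library left out (2 without tamoxifen 1), while without tamoxifen 1 DESeq2 called 5 and edgeR 2. Over all genes 71 were called with DESeq2, 2 with the GC correction and 0 to 41 with 1 library left out (41 without tamoxifen 1), and without tamoxifen 1 DESeq2 called 230 and edgeR 49. The cause was not tested.

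Same-numbered libraries did not deviate together (correlations −0.0236, 0.0607 and −0.153), so the numbers were not used as pairs. In this balanced design the replicate block cannot move a log2 difference (Ctsg 0.85, median of the 10 genes 2.19). For Ctsg it moved the unadjusted limma p from 0.0730 to 0.0341 and the adjusted p from 0.666 to 0.731. None of the members tested with the block (Elane, Prtn3 and Ctsg) was called. Depth is 1 limit: in oil 1 to 3, 8, 7 and 7 of the 10 genes had 3 reads or fewer, where no order can be read.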

Other observations

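Ctsg lies in a cluster of mast cell and granzyme protease genes on chromosome 14. Mcpt8, the basophil protease gene 14.6 kb from it, had 27.8, 26.0 and 40.9 normalized counts in oil and 60.1, 78.8 and 96.4 in the libraries labelled tamoxifen, with a log2 difference of 1.29 (limma adjusted p = 0.666) and no overlap. DESeq2 called Mcpt8 when the library labelled tamoxifen 1 was left out (1.49, adjusted p = 0.0121). Gzmb, the gene of the cytotoxic protease granzyme B, lies 156 kb away and had 5.39, 6.75 and 6.50 normalized counts in oil and 83.1, 71.7 and 74.6 in the libraries labelled tamoxifen, with a log2 difference of 3.43 (limma adjusted p = 0.0950). Gzmb was chosen after its values were seen, and it was tested only through the libraries labelled tamoxifen, since no oil library reached 10. Mcpt4, 37.6 kb from Ctsg, overlapped between the groups, at 263 to 480 and 80.5 to 622 normalized counts. So did Mcpt1, Mcpt2 and Cma2, with log2 differences of −0.85, −0.54 and −0.59, and Cma1 and Mcpt9, with 0.46 and 0.88. Without the library labelled tamoxifen 1, Mcpt1 was at −0.60, Mcpt2 at −0.17 and Cma1 at 0.75. Gzmc, Gzmf, Gzmg and Gzmn had 0 reads in every library, and Gzmd and Gzme had 0 to 2. The genes whose values ran most like those of Ctsg over the 6 libraries, by Pearson correlation and as a description, were Det1 (0.959), Lrrc31 (0.957), C030006K11Rik (0.957), Bex2 (0.952) and Vti1a (0.951), which share these libraries and their depth. Around the other genes, Lrrc2, 35.2 kb from Ltf, was higher without overlap, at 18.6 to 23.4 and 30.3 to 33.6 normalized counts. Cfd, the complement factor D gene next to Elane, had 0 or 1 read in every library.

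Outside the tested genes, 3 further transcripts of the granulocyte program were at few reads in oil, and were chosen after their values were seen. Cebpa, the C/EBP factor that starts granulocyte differentiation, had 0 reads in every oil library and 2, 6 and 2 in the libraries labelled tamoxifen 1 to 3. Cybb, the catalytic subunit of the NADPH oxidase, had 2, 0 and 0 reads in oil and 5, 7 and 4 in the libraries labelled tamoxifen. Pglyrp1, a peptidoglycan-binding protein of the specific granule, had 3, 2 and 1 reads in oil and 6, 4 and 9 in the libraries labelled tamoxifen. Cebpe, the C/EBP factor needed for secondary granules, had 0 or 1 read in every library. In the marker lists, Mertk (macrophage) and Cd79b (B cell) were also untested and higher without overlap, and were chosen after their values were seen. Outside the marker lists, the other untested genes of the related lists overlapped. Chit1 had 7, 1 and 4 reads in oil and 4, 2 and 1 in the libraries labelled tamoxifen. Ear2 had 9, 7 and 2 reads in oil and 0, 5 and 6 in those libraries. Tested or not, 3 of 15 transcription factors, 2 of 6 NADPH oxidase genes and 2 of 20 secondary and tertiary granule genes were higher without overlap. In the same order, 2, 0 and 0 were lower. The background was 7.86% higher and 9.69% lower for tested genes, and 9.15% and 4.64% in the level range of the 8 scarcer genes. In the packaging list 1 of 15 was higher and 4 were lower. Other primary granule and hydrolase genes had 1 and 1 of 15, and other S100 genes 1 and 2 of 15. For macrophage markers the counts were 5 and 0 of 12, and for B cell markers 2 and 0 of 6.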
